A study of Rattus norvegicus with 9 samples.

Results

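The 36 genes described here drive DNA replication and mitosis. They were taken as a named list of proliferation genes, and each was found through probe sets whose annotation gives its symbol alone. This located 34 of the 36 genes on 47 probe sets, of 14217 genes with such a probe set. Rrm2 lay only on 2 probe sets with several symbols, and no probe set carried Tpx2, so neither was analysed here. Of the 34 genes, 22 had a probe set whose mean over all arrays reached the 40th percentile of all probe sets, a normalized log2 signal of 5.75. The other 12 fell below it and are called near background (35.3% of the list, against 26.7% of all genes).

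The samples were total RNA of gastrocnemius (a calf muscle) from male Wistar rats of 250 g that carried Alzet osmotic pumps for 7 days. Vehicle rats received propylene glycol, dexamethasone rats 0.7 mg/kg/day of this synthetic glucocorticoid, and the combination rats the same dexamethasone dose with testosterone. The testosterone dose is 28 mg/kg/day in the sample labels and 20 mg/kg/day in the series design. Each of the 3 groups has 3 arrays, numbered 1 to 3, and no group received testosterone alone. The labels do not say which animal each array came from, so p-values measure the spread between arrays.

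Before a cell divides it copies its DNA once and then separates the copies. The MCM2-7 helicase is loaded on replication origins and unwinds DNA, PCNA clamps the polymerases to it, and cyclins with their kinases time each step. Aurora and Polo kinases, the spindle checkpoint and kinesin motors then carry out mitosis. Adult muscle fibres are postmitotic, and the dividing cells of muscle are mostly satellite cells, fibroblasts, vascular cells and leukocytes. Transcription of many of these genes is known to be held down in resting cells by the DREAM complex. This complex acts through CHR elements and E2F sites near the start of the gene. CCAAT boxes, which are not sites of this complex, often lie in the same promoters.

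These elements were searched for in the 250 bases before the start of each gene, taken from the RefSeq promoter table on the GRCr8 build, where 30 members matched. Both strands were searched for CCAAT, for the CHR letters TTTGAA or TTTAAA, and for the E2F letters TTCCCGC or TTCGCGC, and also for TTGCCGC or TTGGCGC. The CCAAT letters were found in 23 of 30 members (76.7%), against 34.0% of all 33469 promoters of that length. CHR letters were found in 17 members (56.7%, against 25.4%), E2F letters in 11 (36.7%, against 7.59%), and CCAAT with CHR letters in 13 (43.3%, against 9.04%). In 84 promoters of further genes of the same processes, the shares were 63.1% for CCAAT, 42.9% for CHR and 27.4% for E2F letters. CCAAT with CHR letters was found in 33.3% of them, so these shares are not particular to the members. The promoters were not matched for base content. A match is a run of letters and not a shown binding site. The next 6 promoters are printed because their genes carry the values reported further on, Mki67, Cks2, Ccnb2 and Mcm6 in dexamethasone muscle and Aurka and Stmn1 in the combination group. Each reads 5′ to 3′ on the strand of its gene, and capitals mark the matches.
Mki67: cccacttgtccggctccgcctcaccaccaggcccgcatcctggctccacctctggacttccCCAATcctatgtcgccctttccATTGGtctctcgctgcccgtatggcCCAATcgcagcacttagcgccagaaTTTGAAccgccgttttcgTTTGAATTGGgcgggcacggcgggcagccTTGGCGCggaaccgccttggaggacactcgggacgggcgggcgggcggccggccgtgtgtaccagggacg
Cks2: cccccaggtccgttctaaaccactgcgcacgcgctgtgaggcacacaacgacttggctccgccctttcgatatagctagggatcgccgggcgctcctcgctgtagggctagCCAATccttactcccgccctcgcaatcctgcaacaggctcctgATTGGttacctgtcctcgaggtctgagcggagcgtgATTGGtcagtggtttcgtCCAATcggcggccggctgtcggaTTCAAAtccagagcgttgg
Ccnb2: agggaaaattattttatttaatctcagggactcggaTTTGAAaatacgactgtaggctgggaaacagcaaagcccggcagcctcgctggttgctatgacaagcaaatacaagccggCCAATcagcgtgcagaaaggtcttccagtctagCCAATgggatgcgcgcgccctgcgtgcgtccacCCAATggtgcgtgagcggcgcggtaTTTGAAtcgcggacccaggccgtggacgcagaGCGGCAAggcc
Mcm6: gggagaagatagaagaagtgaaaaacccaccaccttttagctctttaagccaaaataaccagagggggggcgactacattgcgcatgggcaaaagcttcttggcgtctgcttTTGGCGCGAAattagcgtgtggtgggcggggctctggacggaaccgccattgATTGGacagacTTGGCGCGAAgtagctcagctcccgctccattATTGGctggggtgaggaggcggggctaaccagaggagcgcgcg
Aurka: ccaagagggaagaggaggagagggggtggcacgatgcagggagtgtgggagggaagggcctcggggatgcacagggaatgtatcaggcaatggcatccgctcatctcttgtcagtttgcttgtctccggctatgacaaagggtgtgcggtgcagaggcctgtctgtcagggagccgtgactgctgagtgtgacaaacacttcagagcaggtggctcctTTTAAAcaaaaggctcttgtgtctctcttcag
Stmn1: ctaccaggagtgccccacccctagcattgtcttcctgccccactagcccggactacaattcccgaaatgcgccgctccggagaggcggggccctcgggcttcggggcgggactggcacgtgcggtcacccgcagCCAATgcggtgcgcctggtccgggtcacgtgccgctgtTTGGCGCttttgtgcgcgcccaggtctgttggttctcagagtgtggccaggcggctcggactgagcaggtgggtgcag
Mki67 lies on the minus strand at chr1:199952594-199952843, Cks2 on the minus strand at chr17:13727520-13727769 and Ccnb2 on the minus strand at chr8:79981659-79981908. Mcm6 lies on the minus strand at chr13:42404353-42404602, Aurka on the minus strand at chr3:181560770-181561019 and Stmn1 on the plus strand at chr5:151964929-151965178. The Mki67 window held 4 CCAAT matches and 2 CHR matches, of which one pair overlaps by 1 base, and 1 E2F match. The Cks2 window held 4 CCAAT matches and 1 CHR match, and the Ccnb2 window 3 CCAAT, 2 CHR and 1 E2F match. In Mcm6 the 4 E2F matches are 2 overlapping pairs, each with 1 match on either strand, beside 2 CCAAT matches. The Aurka window held 1 CHR match and no other, and the Stmn1 window 1 CCAAT and 1 E2F match.

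The deposited arrays differed in ways the groups do not explain, and this bears on every value given here. Set A holds 4 arrays (vehicle 1 and 3, dexamethasone 1, combination 1) whose trimmed mean intensity was 113.3 to 206.8, and set B holds array 2 of each group, scaled to 500.3. Set C holds dexamethasone 3 and combination 3, also at 500.3, with a 3′ to 5′ probe ratio for Gapdh of 4.94 and 6.22, against 1.06 to 1.17 on the other 7 arrays. That ratio rises when RNA is degraded or copied incompletely. Set C has no vehicle array. Without it the log2 difference turned its sign in 5 members between dexamethasone and vehicle (Rrm1, Cdk1, Ccnb1, Birc5, Top2a), in 6 between combination and dexamethasone (Tyms, Cdk2, Bub1b, Mad2l1, Birc5, Top2a) and in 4 between combination and vehicle (Tyms, Cdk2, Plk1, Top2a). Over all alternatives run, 15, 18 and 13 of the 34 members turned their sign at least once in these comparisons, so the sign of a small difference is not firm. Of 14 muscle fibre markers, 13 had a probe set and all 13 were above the near-background line. Any skeletal muscle would give this, so it does not check the gastrocnemius label.

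In muscle of dexamethasone rats, no member passed the test against vehicle. The tested members stood at 0 of 26 probe sets, where 1.05% of all 18625 probe sets tested passed limma's test at a Benjamini-Hochberg adjusted p under 0.05. Before adjustment 4 of the 22 tested members had a p under 0.05 (15.5% of all probe sets tested did). The lowest adjusted p among members was 0.0930, for the mitotic cyclin gene Ccnb2. By sign, 26 of the 34 log2 differences were below 0 and 8 above, with a median of -0.23 against 0.04 over all genes. That median was -0.35 without dexamethasone 1 and -0.14 without vehicle 2. The 3 dexamethasone arrays all lay below the 3 vehicle arrays for 7 members (20.6%), where 9.85% of all genes did so. These were the tested genes Mcm3, Mcm6, Ccnb2 and Cdc20 and the near-background genes Ccna2, Cks2 and Mki67. One member, Pcna, lay wholly above (2.94%, against 12.8% of all genes). In this bulk tissue, fewer dividing cells and less RNA per cell cannot be told apart.

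Among the helicase subunits, which act as 1 ring of 6 proteins, the log2 differences between dexamethasone and vehicle ran from -1.19 to 0.75. Mcm6 had log2 signals of 6.54, 6.21 and 6.86 in vehicle, 5.42, 4.66 and 5.97 in dexamethasone, and 6.11, 5.43 and 6.20 in the combination group. All 3 dexamethasone arrays were below all 3 vehicle arrays, and the log2 difference was -1.19 ± 0.36 (SE, n = 3 arrays a group, limma adjusted p = 0.150). It was -1.28 within set A and -1.55 within set B, and with the set as a block Mcm6 passed the test (log2 difference -1.31, limma adjusted p = 0.0435). Mcm6 reached the filter through the vehicle group, as the other 6 arrays averaged 5.63, so the filter and this call rest on the same high group.

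Mcm3 had log2 signals of 6.06, 6.23 and 5.86 in vehicle, 5.63, 4.90 and 5.35 in dexamethasone, and 6.50, 4.80 and 6.57 in the combination group. Its log2 difference between dexamethasone and vehicle was -0.76 ± 0.44 (SE, limma adjusted p = 0.455), and the combination arrays spread over both other groups. It too reached the filter through vehicle, with 5.62 on the other 6 arrays. Mcm7, the brightest probe set of the ring genes, ran the other way, with 9.40, 8.36 and 8.87 in vehicle, 9.58, 9.30 and 9.99 in dexamethasone, and 9.45, 9.37 and 9.89 in the combination group. Its log2 difference was 0.75 ± 0.30 (SE, limma adjusted p = 0.277), and the groups overlapped through vehicle 1. Mcm4 overlapped in each comparison, with 6.92, 7.29 and 7.42 in vehicle, 7.26, 6.21 and 7.33 in dexamethasone, and 7.84, 7.26 and 7.62 in the combination group, and a log2 difference between dexamethasone and vehicle of -0.28 (-0.46 without set C). Mcm2 and Mcm5 differed by -0.21 and -0.12 on the log2 scale. The ring genes thus did not share 1 sign, although no difference among them was tested.

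At the replication fork, Pcna was the brightest probe set of all members, with log2 signals of 10.17, 9.96 and 10.27 in vehicle, 10.57, 10.56 and 10.71 in dexamethasone, and 10.29, 9.97 and 10.40 in the combination group. The dexamethasone arrays stood above both other groups without overlap. The log2 difference from vehicle was 0.48 ± 0.19 (SE, limma adjusted p = 0.258), a 1.39-fold ratio, and it was 0.35 within set A and 0.60 within set B. PCNA also serves DNA repair, and its level is therefore not a marker of division alone.

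Rrm1, the large subunit of ribonucleotide reductase, which makes deoxynucleotides, had 8.94, 9.26 and 9.08 in vehicle, 9.43, 8.72 and 9.64 in dexamethasone, and 9.43, 9.60 and 9.89 in the combination group. Dexamethasone and vehicle overlapped, with a log2 difference of 0.17 that was -0.02 without set C. Tyms, the thymidylate synthase gene, was near background, with log2 signals from 4.12 to 5.68 over the 9 arrays.

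**Figure D1:**
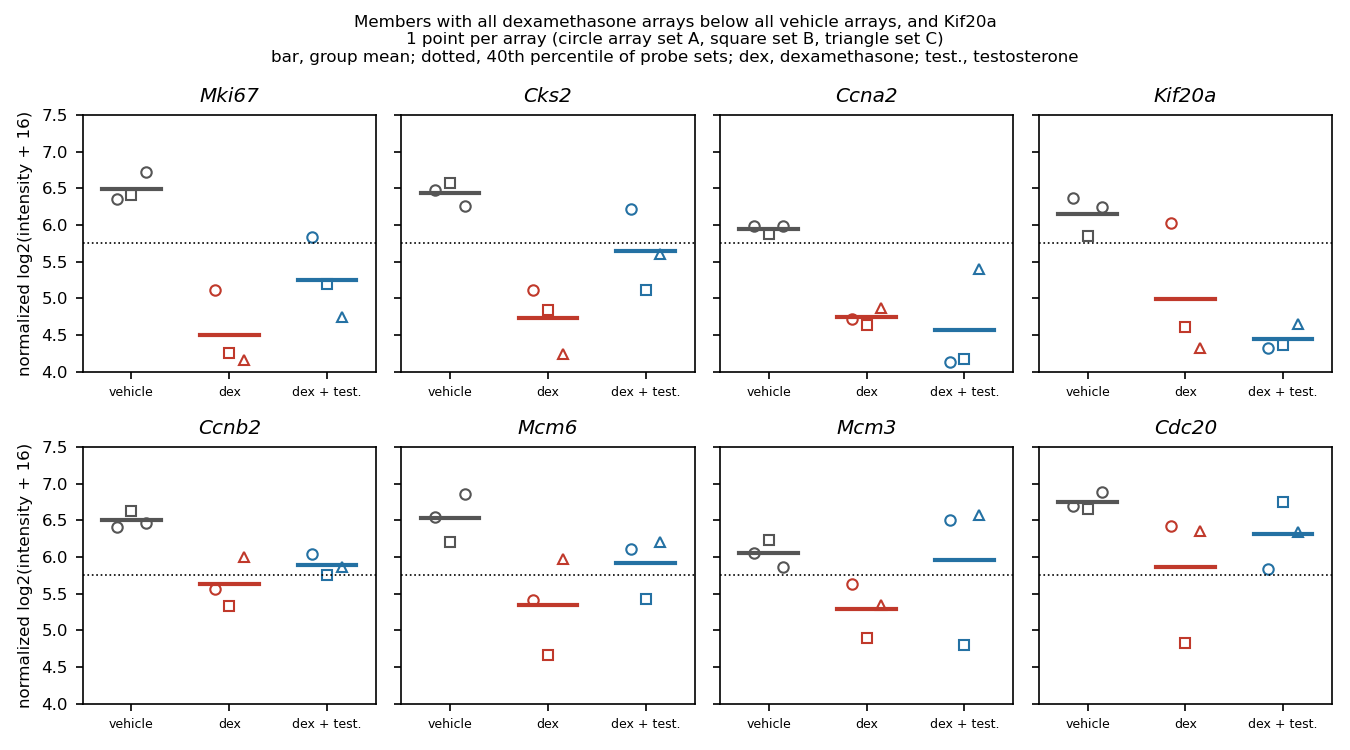
Normalized log2(intensity + 16) of 8 members, 1 point per array, by group on the x axis, with the group mean as a bar, array sets as symbols and the near-background line of 5.75 dotted. Vehicle arrays of all 8 genes lie above that line. All genes but Kif20a were picked because their dexamethasone arrays lie below their vehicle arrays. For Kif20a, dexamethasone 1 (6.03) lies above vehicle 2 (5.85).

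Among the cyclins and their kinases, Ccnb2 gave the lowest adjusted p of any tested member. This cyclin B2 gene, whose product activates CDK1 at entry into mitosis, had log2 signals of 6.41, 6.63 and 6.46 in vehicle, 5.57, 5.34 and 6.0 in dexamethasone, and 6.04, 5.76 and 5.87 in the combination group. Every treated array lay below every vehicle array. The log2 difference between dexamethasone and vehicle was -0.86 ± 0.21 (SE, limma adjusted p = 0.0930), 1.82-fold lower. This ratio is limited, as the dexamethasone mean of 5.64 lay below the near-background line. Without the set C arrays the log2 difference was -1.01 and passed (limma adjusted p = 0.0493). The dexamethasone arrays kept there, 5.57 and 5.34 in the reported normalization, lay below that line and the vehicle arrays above it. The filter and this call are thus not independent. The other B-type cyclin gene, Ccnb1, differed by 0.11 on the probe set with the higher mean (-0.12 without set C) and by -0.99 on a near-background one.

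Cks2, Ccna2, Mki67 and Kif20a were near background by their mean over all arrays, and they are given in full although this choice was made after their values were seen. Cks2 encodes a small subunit bound to cyclin-dependent kinases. Its log2 signals were 6.48, 6.57 and 6.26 in vehicle, 5.11, 4.84 and 4.24 in dexamethasone, and 6.22, 5.11 and 5.60 in the combination group, so vehicle stood above both treated groups. The log2 difference between dexamethasone and vehicle was -1.71 ± 0.33 (SE, -1.41 without set C), with a limma adjusted p of 0.0794 over all 31042 probe sets unfiltered, a test that 0.155% of probe sets passed.

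Ccna2, cyclin A2, which acts in S phase and G2, had 5.99, 5.87 and 5.99 in vehicle, 4.72, 4.64 and 4.87 in dexamethasone, and 4.14, 4.17 and 5.40 in the combination group. Its log2 difference was -1.20 ± 0.33 (SE, unfiltered limma adjusted p = 0.196), -1.27 within set A and -1.22 within set B. Ccne2, a cyclin of the G1 to S step, had 6.86, 6.32 and 7.17 in vehicle, 6.53, 6.70 and 6.27 in dexamethasone, and 6.08, 6.0 and 6.24 in the combination group. Dexamethasone and vehicle overlapped, while on this probe set every combination array was the lower of any pair. Cdc25b, a phosphatase that activates cyclin-dependent kinases, overlapped throughout, with 7.15, 6.70 and 7.25 in vehicle, 6.89, 6.66 and 7.06 in dexamethasone, and 6.63, 7.16 and 7.30 in the combination group. The kinase genes themselves, Cdk1 (near background) and Cdk2, differed by -0.09 and 0.35 between dexamethasone and vehicle (0.19 and 0.24 without set C), and Ccne1 (near background) by -0.32 (-0.79 without set C).

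Mki67 encodes Ki-67, a coat protein of mitotic chromosomes used to mark dividing cells, and had the largest log2 difference of any member between dexamethasone and vehicle. Its log2 signals were 6.35, 6.41 and 6.72 in vehicle, 5.11, 4.25 and 4.16 in dexamethasone, and 5.83, 5.20 and 4.74 in the combination group. The vehicle arrays all stood above the near-background line and the dexamethasone arrays all below it. The log2 difference was -1.99 ± 0.34 (SE), with an unfiltered limma adjusted p of 0.0673. It was -1.43 within set A and -2.16 within set B. Mki67 was kept out of the filtered test by its mean over all arrays, of 5.42, and 2 unfiltered alternatives added after the data were seen called it, with limma adjusted p-values of 0.0332 and 0.035. The dexamethasone values lie below 5.17, the median log2 signal of 23 genes restricted to other tissues, so the ratio behind this difference is not well measured.

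Top2a, the topoisomerase that untangles sister chromatids, was on 2 tested probe sets that differed. The one with the higher mean gave 5.67, 6.33 and 6.37 in vehicle, 6.95, 5.55 and 5.34 in dexamethasone, and 6.04, 6.17 and 6.40 in the combination group. Its groups overlapped, with a log2 difference between dexamethasone and vehicle of -0.17 ± 0.40 (SE, limma adjusted p = 0.875), and 0.13 without set C. The other gave 6.18, 6.76 and 6.89 in vehicle, 5.25, 4.90 and 5.37 in dexamethasone, and 6.43, 6.06 and 4.40 in the combination group. Here all dexamethasone arrays were below all vehicle arrays, with a log2 difference of -1.44 ± 0.47 (SE, limma adjusted p = 0.181). This probe set passed the test without the set C arrays. Over all arrays its mean was 6.61 in vehicle, 5.17 in dexamethasone and 5.63 in the combination group. Only the vehicle mean lay above the near-background line. It thus reached the filter through vehicle, so the filter and this difference rest on the same high group. What sets the 2 Top2a probe sets apart was not tested.

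Of the 9 mitotic kinase and checkpoint genes, Cdc20 alone separated dexamethasone from vehicle without overlap. Cdc20 activates the anaphase-promoting complex, and its log2 signals were 6.69, 6.65 and 6.89 in vehicle, 6.42, 4.83 and 6.35 in dexamethasone, and 5.84, 6.75 and 6.34 in the combination group. The log2 difference was -0.88 ± 0.42 (SE, limma adjusted p = 0.358), and it rested largely on dexamethasone 2, being -0.36 within set A and -1.83 within set B. The 5 Cdc20 probe sets gave log2 differences of -0.88, -0.01, -0.77, -0.76 and 0.10. Bub3, a checkpoint protein that also has roles outside mitosis, was bright and overlapped in each group, with 10.09, 10.18 and 10.08 in vehicle, 9.81, 10.19 and 10.07 in dexamethasone, and 10.20, 10.18 and 10.23 in the combination group.

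The checkpoint kinase gene Bub1 also overlapped in each comparison, with 6.84, 6.85 and 6.79 in vehicle, 6.71, 6.33 and 7.25 in dexamethasone, and 7.01, 6.70 and 7.19 in the combination group. Plk1, the Polo-like kinase gene, differed by -0.66 ± 0.61 (SE) on the log2 scale between dexamethasone and vehicle, and by -0.35 without set C. Aurkb, Bub1b, Mad2l1 and Birc5, which act at kinetochores and in the checkpoint, were near background, with log2 differences of -0.38, -0.41, 0.28 and -0.12 and overlapping groups.

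Of the spindle and cytokinesis genes, Kif20a, a kinesin needed for cytokinesis, had log2 signals of 6.37, 5.85 and 6.24 in vehicle, 6.03, 4.61 and 4.32 in dexamethasone, and 4.33, 4.36 and 4.65 in the combination group. Its combination arrays were all below its vehicle arrays, while dexamethasone overlapped vehicle through dexamethasone 1. Nusap1, a microtubule-binding spindle protein, had 6.35, 6.30 and 6.47 in vehicle, 5.77, 6.54 and 4.66 in dexamethasone, and 6.61, 6.28 and 6.66 in the combination group, with overlap in each comparison. Its log2 difference between dexamethasone and vehicle was -0.72 ± 0.40 (SE), and -0.21 without set C. The motor gene Kif11 and the midzone gene Prc1 (near background) differed by -0.26 and -0.77 between dexamethasone and vehicle, and both overlapped.

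**Figure D2:**
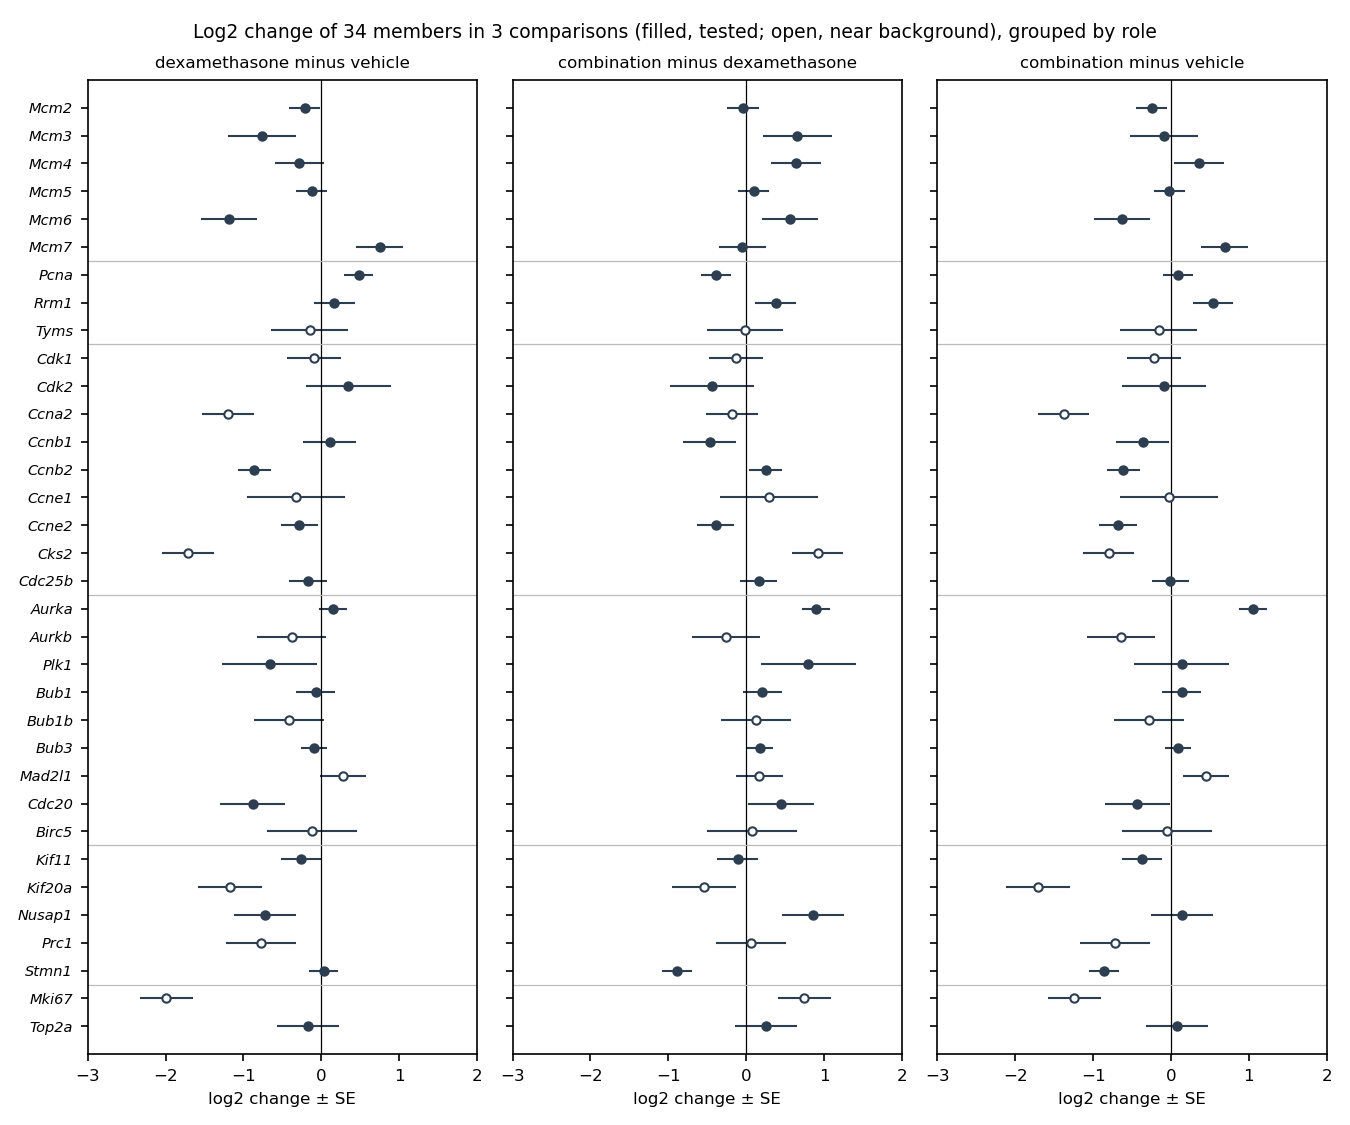
Log2 difference ± SE (limma, 3 arrays a group) of 34 members in the 3 comparisons, with filled points for tested and open points for near-background genes and lines between role groups. Dexamethasone minus vehicle has 26 points below 0 and 8 above, and the largest differences, Mki67 (-1.99) and Cks2 (-1.71), are open points.

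The near-background members were also followed array by array. Their summed normalized intensity (12 genes, with the pseudocount taken off) was 460 to 550 in vehicle, 200 to 295 in dexamethasone and 247 to 382 in the combination group, with vehicle above both others on every array. For all 3789 near-background genes the sums were 77191 to 82593 in vehicle and 80735 to 88013 in dexamethasone. Most of the members' difference lay in Mki67, Cks2, Ccna2 and Kif20a, picked after their values were seen, which summed to 232 to 257 in vehicle and 22 to 97 in dexamethasone. The other 8 genes summed to 206 to 317 in vehicle and 167 to 198 in dexamethasone. All vehicle arrays of Mki67, Cks2, Ccna2 and Kif20a lay above 5.75, so their low treated values put them near background, and the split by mean level is not independent of the difference. The 22 tested members summed to 4991 to 5179 in vehicle and 5169 to 6226 in dexamethasone, and all 34 to 5540 to 5639 and 5370 to 6446, sums set mostly by Pcna, Bub3 and other bright probe sets. The median log2 deviation of the tested members from the vehicle mean was -0.17, -0.35 and 0.02 on the dexamethasone arrays.

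**Figure D3:**
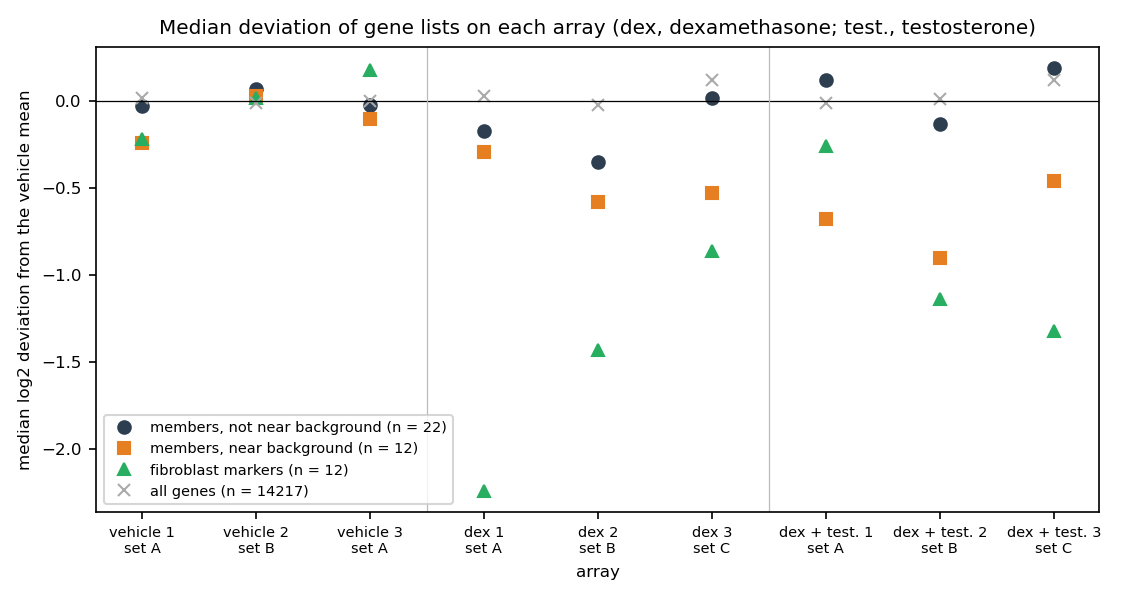
Median log2 deviation from the vehicle mean (y axis) on each of the 9 arrays (x axis), for tested members, near-background members, fibroblast markers and all genes. Near-background members stand at -0.29, -0.58 and -0.53 on the dexamethasone arrays, where all genes stand at 0.03, -0.02 and 0.12, and fibroblast markers are below 0 on every treated array. The split of members by mean level is not independent of their difference.

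Markers of other cell types moved beside these genes, and their part in the result was not tested. All 12 measured fibroblast markers of 13 listed had log2 differences below 0 between dexamethasone and vehicle, with a median of -1.36. One of the 12, the matrix gene Mfap5, fell (log2 difference -1.75, limma adjusted p = 0.0338), and 11 of 22 alternatives ended that call. Their summed intensity was 30520 to 46153 in vehicle, 5049 to 17555 in dexamethasone and 13735 to 35792 in the combination group. Endothelial markers had a median of -0.47, with 9 of 11 below 0, and sums of 4039 to 4719 in vehicle, 3449 to 3662 in dexamethasone and 3375 to 3525 in the combination group. Erythroid markers had a median of -0.85 (5 measured) and sums of 5429 to 7792 in vehicle, 1198 to 4636 in dexamethasone and 2768 to 6116 in the combination group.

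Of 10 listed markers of satellite cells, the stem cells of muscle, and myoblasts, 7 had a probe set with their symbol alone, and the defining Pax7 and Myf5 did not. The 7 had a median log2 difference of 0.05 and sums of 18508 to 22509 in vehicle, 20424 to 22698 in dexamethasone and 18134 to 22385 in the combination group. Macrophage markers had a median of -0.26 over 12 genes, with sums of 2236 to 2550 in vehicle, 1132 to 3855 in dexamethasone and 1074 to 2733 in the combination group. Smooth muscle and pericyte markers had a median of -0.21 over 7 genes. Lymphocyte markers were near background for 6 of 8 genes, with sums of 171 to 260 in vehicle and 222 to 269 in dexamethasone.

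A further 92 genes of the same processes were listed, of which 78 had a probe set and 43 were tested. Between dexamethasone and vehicle 1 of the 43 rose and 1 fell by limma's adjusted test, which 1.05% of all probe sets tested passed. The separase gene Espl1, whose product cuts cohesin at anaphase, had log2 signals of 8.01, 8.20 and 7.82 in vehicle, 6.89, 6.17 and 6.96 in dexamethasone, and 7.86, 8.22 and 7.79 in the combination group. It fell by 1.34 ± 0.25 on the log2 scale (SE, limma adjusted p = 0.0476), and 14 of 22 alternatives ended the call, with limma adjusted p-values of 0.0525 to 0.166. The dexamethasone arrays stood below both other groups without overlap.

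Tacc3, a spindle microtubule gene, rose by 1.47 ± 0.26 on the log2 scale (SE, limma adjusted p = 0.0378), from 5.20, 5.36 and 5.20 in vehicle to 6.53, 6.74 and 6.92 in dexamethasone, with 5.97, 6.33 and 6.97 in the combination group. A near-background probe set of Tacc3 gave -1.29. The tested one did not pass in 11 of 22 alternatives, with limma adjusted p-values of 0.0578 to 0.165, and was not tested in 1. The direction for Tacc3 is therefore not settled by these arrays.

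Of 20 genes of origin firing and the fork, 15 had log2 differences above 0, with a median of 0.32, and 7 (35.0%) lay wholly above vehicle without overlap, where 12.8% of all genes did. These were Gmnn, Cdc45, Rfc4, Rfc5, Lig1, Rpa2 and Ung. Of 16 tested genes, 0 passed limma's adjusted test and 3 had an unadjusted p under 0.05, where 15.5% of all probe sets tested did. After Tacc3, the largest log2 differences above 0 among tested genes of the 4 lists were those of the licensing inhibitor Gmnn (0.84 ± 0.41) and the centromere gene Cenpk (0.83 ± 0.24).

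Of 22 genes of the spindle, cytokinesis and mitotic exit, 16 had log2 differences below 0, with a median of -0.30, and 7 (31.8%) lay wholly below vehicle, where 9.85% of all genes did. They were Kif15, Kif20b, Racgap1, Aspm, Ube2c, Espl1 and Cdkn3. Only 2 of them were among the 9 tested genes (22.2%), and 5 were among the 13 near-background genes (38.5%). As for the members, the split by mean level is not independent of the difference. The 13 near-background genes of this list summed to 423 to 517 in vehicle, 200 to 269 in dexamethasone and 399 to 438 in the combination group. The largest log2 differences below 0 among tested genes outside it were those of E2f2 (-1.0 ± 0.57), a transcription factor of S-phase genes, and Lmnb1 (-0.90 ± 0.25), a nuclear lamin gene. The median was 0.18 over 15 centromere genes and -0.09 over 21 chromatin and transcription factor genes.

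Adding testosterone to dexamethasone asks whether the androgen alters what dexamethasone does. This comparison shares the dexamethasone arrays with the previous one, so the values are set side by side and not related to each other. No member passed limma's adjusted test, where 0.113% of all probe sets tested did. Before adjustment 2 of the 22 tested members had a p under 0.05, where 11.0% of all probe sets did. By sign 21 log2 differences were above 0 and 13 below, with a median of 0.15 against 0.00 over all genes. Groups did not overlap for Aurka and Cks2 on the higher side (5.88%, against 7.11% of all genes) and for Pcna, Ccne2 and Stmn1 on the lower side (8.82%, against 7.84%). Both shares were close to those of all genes. For Cks2 the margin was smaller than the rounding, as dexamethasone 1 and combination 2 both read 5.11.

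Aurka, the kinase of spindle poles, stood apart in the combination group. Its log2 signals were 5.60, 5.91 and 5.51 in vehicle, 5.75, 5.82 and 5.89 in dexamethasone, and 6.77, 6.84 and 6.55 in the combination group. Every combination array was above all 6 others, which lay near the background line. The log2 difference from dexamethasone was 0.90 ± 0.18 (SE, limma adjusted p = 0.104), with 1.02, 1.02 and 0.66 within sets A, B and C. From vehicle it was 1.05 ± 0.18 (SE, limma adjusted p = 0.467). Aurka reached the filter through the combination group, as the other 6 arrays averaged 5.74, so no fold is given.

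Stmn1, stathmin, which destabilizes microtubules and is also made by nerve cells, ran the other way. Its log2 signals were 9.21, 9.11 and 8.99 in vehicle, 9.04, 9.23 and 9.13 in dexamethasone, and 7.99, 8.21 and 8.53 in the combination group. The combination arrays lay below all 6 others, while vehicle and dexamethasone overlapped. The log2 difference from dexamethasone was -0.89 ± 0.19 (SE, limma adjusted p = 0.117), 1.85-fold lower, with -1.05, -1.02 and -0.60 within sets A, B and C. From vehicle it was -0.86 ± 0.19 (SE, limma adjusted p = 0.793).

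**Figure D4:**
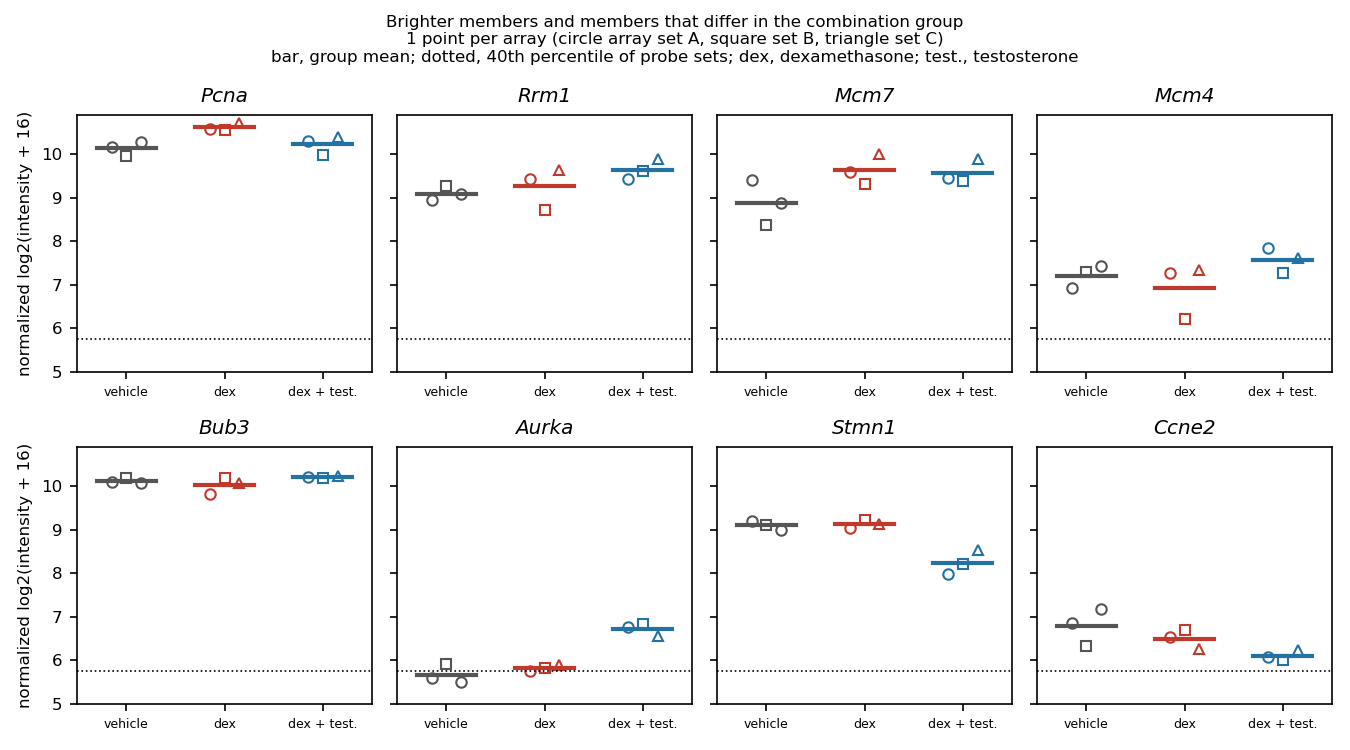
Normalized log2(intensity + 16) of 8 further members, 1 point per array, by group on the x axis, with the group mean as a bar and array sets as symbols. Aurka stands above, and Stmn1 below, all 6 other arrays in the combination group, and Pcna is highest on the dexamethasone arrays (10.56 to 10.71).

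The other members of this comparison differed by less relative to their spread. Pcna differed by -0.39 ± 0.19 (SE, limma adjusted p = 0.498) and its log2 difference between combination and vehicle was 0.09 ± 0.19 (SE). Ccne2 differed by -0.39 ± 0.24 (SE, limma adjusted p = 0.625), and by -0.03 within set C. A near-background probe set of Ccne2 gave -0.0, with overlap. Mki67 and Cks2 had log2 differences of 0.75 and 0.92 (0.80 and 0.66 without set C). Of the pair, Cks2 did not overlap between combination and dexamethasone, by a margin smaller than the rounding. Nusap1 had 0.86, which was 2.0 within set C, -0.26 within set B and 0.28 without set C, and its other tested probe set gave -0.43. Kif20a and Ccna2 differed by -0.54 and -0.18 (-0.93 and -0.50 without set C). The probe sets of Ccnb1 disagreed, with -0.47 on the one with the higher mean, which overlapped, and 1.23 on a near-background one. On the latter all combination arrays lay above all dexamethasone arrays.

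Among the further genes 6 of 43 tested had an unadjusted limma p under 0.05, where 11.0% of all probe sets tested did. Of the 43, 0 passed limma's adjusted test, with a lowest adjusted p of 0.10. That was Espl1, with a log2 difference of 1.28 ± 0.25 (SE), followed by Ube2c (0.66 ± 0.23), which tags mitotic cyclins for destruction, and the condensin gene Ncaph (0.66 ± 0.60). The condensin gene Smc4 (-0.84 ± 0.50), the kinesin gene Kif22 (-0.83 ± 0.37), and Gmnn and the centromere gene Cenpn (both -0.51) were the lowest. In the spindle list 18 of 22 genes were above 0, with a median of 0.37. Fibroblast markers had a median of 0.99, with 9 of 12 above 0, but the arrays did not share this rise. Their median deviations from the vehicle mean were -2.24, -1.43 and -0.86 on dexamethasone arrays 1 to 3. On combination arrays 1 to 3 they were -0.26, -1.14 and -1.32, so within set C the combination array was the lower. The part of these markers in the values above was not tested.

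The combination was also set against vehicle, which gives the difference with both agents present. Limma's adjusted test was passed by 0 members and by 0.0% of all probe sets tested, of which 6.12% had an unadjusted p under 0.05. Of the 22 tested members, 5 had an unadjusted p under 0.05. By sign 11 log2 differences were above 0 and 23 below, with a median of -0.13 against 0.03 over all genes. Top2a and Nusap1, counted above 0 at 0.08 and 0.14, gave -0.98 and -0.9 on their other tested probe sets. The 9 genes of cyclins and their kinases ran from -1.38 for Ccna2 to -0.01 for Cdc25b. Of these Cdk2, Ccne1, Cdc25b and Cdk1 turned their sign in 6, 4, 3 and 1 of 23 alternatives, and near-background probe sets of Ccnb1 and Cdk2 gave 0.24 and 0.09.

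Wholly below vehicle lay 8 members (23.5%, against 6.1% of all genes), and wholly above it Rrm1 and Aurka (5.88%, against 7.65%). The 8 were Mcm6 (-0.63), Ccnb2 (-0.61), Ccne2 (-0.68) and Stmn1 (-0.86) among tested genes and Ccna2 (-1.38), Cks2 (-0.80), Kif20a (-1.71) and Mki67 (-1.24) near background. Of these, Mcm6, Ccnb2, Ccna2, Cks2 and Mki67 also lay below vehicle in the dexamethasone group. Both comparisons use the same 3 vehicle arrays. Rrm1 differed by 0.54 ± 0.26 (SE, limma adjusted p = 0.830).

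Among the further genes 0 of 43 passed limma's adjusted test against vehicle. Of the 43, 5 had an unadjusted p under 0.05, where 6.12% of all probe sets tested did. The largest log2 differences were those of Tacc3 (1.17 ± 0.26), Cenpk (0.77 ± 0.24) and Ncaph (0.61 ± 0.60) above 0, and of E2f2 (-1.38 ± 0.57), Kif22 (-1.09 ± 0.37) and Smc4 (-0.71 ± 0.50) below. The E2f2 value rests largely on combination 1, at 5.97 against 7.89 and 8.48 on the other combination arrays.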

How the data were processed

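RNA of 9 arrays (3 groups of 3) was hybridised to Affymetrix rat expression arrays, per the labels' protocols. The deposited table holds linear intensities of 31099 probe sets, made by a signal algorithm that is not given in the sources used here. As its values show, the authors had scaled 5 arrays to a common trimmed mean and not the other 4. After 57 controls were left out, log2(intensity + 16) was quantile normalized and fitted with limma 3.58.1 in R 4.3.3, with 1 mean per group over all 9 arrays and adjustment over the 18625 probe sets at or above the 40th percentile. Log2 differences are on this scale, where the pseudocount shrinks those of dim probe sets, and the number of arrays limits precision. Brightness of different probe sets was not compared as abundance. Of 31042 probe sets, 20826 had 1 symbol, 436 several and 9780 none. Of several probe sets of a gene, the one with the highest mean over the arrays stands for it. Of 23 genes restricted to other tissues, 20 lay below the near-background line. Values on all arrays are given for members that passed, tested members whose groups did not overlap and the 2 brightest of each role. Of the further genes, those that passed and the 3 largest differences each way are named. The members and lists were chosen with earlier results of these data known. The fit was tested on simulated data. Alternatives changed the pseudocount, filter, scaling, variance model, array set, replicate block and arrays used. With 3 arrays against 3, an exact permutation test cannot go below p = 0.1 and was not used.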

Additional observations from a re-analysis of the deposited data

How the results depend on the processing

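Calls depended on the processing, and 3 alternatives joining 2 choices were chosen after seeing the data. In each, 0 member probe sets passed in both combination comparisons. For dexamethasone against vehicle, 196 probe sets passed in the reported setting. The count was 469 with a filter at the 60th percentile, 510 with an intensity trend and robust variance, 48 with no filter, 117 with no filter and without set C, and 484 with no filter and the trend. It was 54 with a pseudocount of 1, 414 with a pseudocount of 64, 460 without set C, and 1 to 340 when 1 array was left out. Of these, leaving out vehicle 2 or 3 gave 1 and leaving out dexamethasone 3 gave 340. Member probe sets passed as follows: 1 (Mki67) with no filter and the trend, 1 (Mki67) with no filter and a pseudocount of 64, 1 (Mcm6) with the set as a block, and 2 (Ccnb2, Top2a) without set C. Leaving out 1 array gave 0 to 1, the 1 being Ccnb2 without dexamethasone 3 or Top2a without combination 3. The members' median of -0.23 became -0.42 with trimmed mean scaling, -0.14 with a pseudocount of 64, and -0.35 (without dexamethasone 1) to -0.14 (without vehicle 2) when 1 array was left out. For the combination against dexamethasone, 21 probe sets passed, and 83 did at the 60th percentile, 149 with the trend, 163 with no filter and the trend, 45 with no filter and a pseudocount of 64, 5 with a pseudocount of 1, 102 with 64, 12 when scaled before the pseudocount, 39 without set C, and 0 to 67 when 1 array was left out. With no filter, with or without set C, 0 passed. The members' median of 0.15 became 0.10 with a pseudocount of 64 and ran from 0.09 (without dexamethasone 2 or combination 3) to 0.23 (without combination 1). For the combination against vehicle the count was 0 under each alternative. The members' median of -0.13 became -0.31 without set C, filtered or not, -0.30 with a pseudocount of 1, -0.04 with 64, -0.35 with trimmed mean scaling, and -0.34 to -0.04 when 1 array was left out. The cause of these shifts was not tested. Of 2346 values of single members under alternatives, 2278 moved by less than 1 SD between arrays, 63 by more, 5 passed only there, and 0 that passed had the opposite sign. These counts do not measure robustness. Alternatives that change only the filter, the variance model or the replicate block leave a log2 difference as it was, so many values could not move. As no member passed in the reported setting, only those 5 could have counted as passing with the opposite sign. Whether the replicate numbers pair the arrays is not settled. Same-numbered arrays correlated in their deviations from the group means from -0.201 to 0.587, several under 0.1. Arrays of different numbers correlated from -0.537 to 0.352. The number goes partly with the array set, as set B is array 2 of each group and set C is array 3 of both treated groups. With the replicate number as a block, 13 probe sets passed for dexamethasone against vehicle, 0 for the combination against dexamethasone, and 0 member probe sets in any comparison. The fold of members near background is limited by their signal over background.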
